A study of Mus musculus with 48 samples.

Results

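The serine/arginine-rich (SR) splicing factors were followed as mRNAs after transcription was blocked in mouse embryonic stem cells. Members were the genes Srsf1, Srsf2, Srsf3, Srsf4, Srsf5, Srsf6, Srsf7, Srsf9, Srsf10 and Srsf11, chosen by name. All 10 were listed in all 48 libraries, among 23862 gene identifiers in all. E14TG2a cells, a feeder-independent mouse embryonic stem cell line, were grown in 2i + LIF medium and given flavopiridol at 1 µM, which blocks CDK9 and with it the onset of productive elongation by RNA polymerase II. Cells were harvested at 30, 60, 120 and 240 min and separated with digitonin and then NP-40 into cytosolic, membrane and nuclear RNA beside a total extract, with 3 independently passaged replicates of each of the 16 groups. All groups were treated: the only untreated state is the level at 0 min, which entered the deposited values as their denominator, and cycloheximide was present in the fractionation buffers. Polyadenylated RNA was sequenced, so that each value is the ratio of a gene's polyadenylated RNA to its own level at 0 min in the same fraction. A ratio of 1 means no change, and the ratios carry no information on how much of an mRNA sits in the nucleus or the cytosol.

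SR proteins bind exonic sequence elements through RNA recognition motifs (RRMs) and recruit the splicing machinery through a domain rich in arginine and serine dipeptides. Phosphorylation of that domain by SRPK and CLK kinases governs their import into the nucleus, their release from nuclear speckles and their activity. Several shuttle with mRNA and serve as adaptors for the export receptor NXF1. SR genes are known for controlling their own output: an SR protein can promote inclusion of a "poison" exon with an early stop codon in its own transcript, which directs the mRNA to nonsense-mediated decay (NMD), and some SR transcripts are held in the nucleus with an intron still in place.

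Annotated transcripts of both kinds were common among the members. In the GENCODE annotation of GRCm38, 9 of the 10 members had at least 1 transcript of the NMD class (not Srsf10), against 28.9% of the 8836 protein-coding genes listed in all nuclear and cytosolic libraries. A retained-intron transcript was annotated for 8 of 10 members (not Srsf9 and Srsf10), against 57.8% of those genes, and Srsf11 alone had 11. On the plus strand of GRCm38 lie Srsf1 at chr11:88047373-88053755, Srsf3 at chr17:29032628-29043373, Srsf4 at chr4:131873617-131901706, Srsf5 at chr12:80945504-80950507, Srsf6 at chr2:162931528-162937121, Srsf9 at chr5:115327177-115333080 and Srsf10 at chr4:135855747-135869908. On the minus strand lie Srsf2 at chr11:116849901-116853094, Srsf7 at chr17:80200080-80207307 and Srsf11 at chr3:158010473-158036639. Member genes were short, with a median of 6806 bases against 24437 bases for all, and their principal transcripts had a median 3′ untranslated region of 1502 bases against 1066. In 5 members, an NMD transcript had its stop codon in an internal exon that no protein-coding transcript translates. The 6 exons of this kind are shown by 30 bases around the stop codon, which is in capitals, because reads from them enter the same gene value as reads from the productive mRNA.
Srsf3, exon chr17:29039454-29039909, plus strand: cttctcaccaccctcTGAatctgcattagc
Srsf4, exon chr4:131884276-131884482, plus strand: tctcatgccccagctTAGagtgcttcaccc
Srsf7, exon chr17:80204622-80205081, minus strand: ttgagtcagtcgcctTGAttcagaatgtca
Srsf9, exon chr5:115328347-115328704, plus strand: attacggattcacagTAGaagtactccgga
Srsf11, first exon chr3:158024123-158024231, minus strand: ttccctggttcagccTGAactatataccag
Srsf11, second exon chr3:158023243-158023359, minus strand: acagcttttgaaagtTGAgagcacacccct
The exons of Srsf3 and Srsf7 were long, 456 and 460 bases, with the stop codon 31 and 25 bases from their start. The deposited values are per gene, so poison-exon, intron-retaining and productive transcripts cannot be told apart in anything that follows.

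Libraries listed between 15067 and 19501 genes, and their depth is unknown. Of 8 embryonic stem cell markers, 6 were listed in all 48 libraries (Zfp42 and Esrrb in fewer). None of 5 fibroblast, 5 primitive endoderm and 4 mesoderm or ectoderm markers was, although single ones were listed in up to 44, 42 and 47 libraries. Ratios do not give their levels. The nuclear 30 min library of replicate 1 stood apart, with a median log2 ratio over genes of -0.76 against -0.08 and -0.28 in the other replicates. In the members it did not, with a median of -0.33 against -0.10 and -0.57, so it lowered the background at 30 min more than the members. The total 120 min library of replicate 1 was low in the members (median log2 ratio -0.88 against -0.36 and -0.43). Counts of calls that moved without either library are given without it as well. Deviations of same-numbered libraries at different times of a fraction had a median correlation of 0.025 over genes, with 6 of 72 pairs over 0.1. Whether each replicate was divided by its own 0 min level or by a shared one is not stated. If it was shared, an error in the 0 min level of a fraction is not part of the spread between its replicates. Single-time differences between fractions carry that error, whereas slopes and changes between times do not.

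The question the design poses for these genes is whether nuclear and cytosolic mRNA left at the same time. The median member fell in the nucleus from the first interval on, whereas in the cytosol it changed little until 120 min and fell afterwards. Single members departed from this course: mean cytosolic ratios of Srsf1, Srsf4 and Srsf10 at 120 min were 0.624, 0.711 and 0.696, and at 240 min the highest mean ratios were those of Srsf9 and Srsf3 in the nucleus and of Srsf9 in the cytosol. The median over the 10 members of the mean ratio went in the nucleus from 0.781 at 30 min to 0.574, 0.402 and 0.270 at 60, 120 and 240 min, and in the cytosol from 0.874 to 0.910, 0.867 and 0.476. The median over all genes listed went from 0.807 to 0.640, 0.507 and 0.354 in the nucleus and from 0.944 to 0.867, 0.689 and 0.492 in the cytosol. The median member therefore stood above the median gene in the cytosol at 60 and 120 min and below it in the nucleus at all 4 times. Single members went the other way. Cytosolic Srsf1 lay below the median gene at 60 and 120 min (0.765 and 0.624), as did Srsf10 at 60 min (0.855). Nuclear Srsf2, Srsf3, Srsf6 and Srsf9 lay above it at 60, 120 and 240 min.

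**Figure D1:**
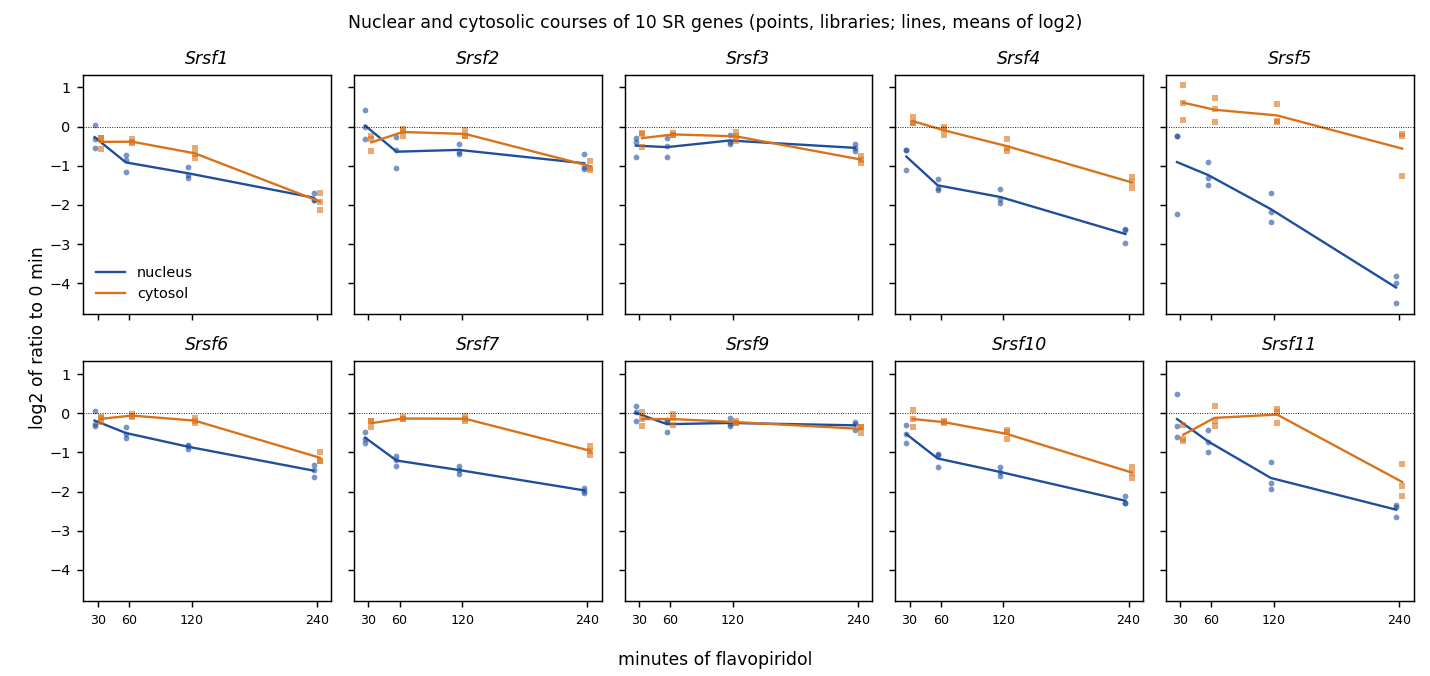
Log2 of the ratio to 0 min (vertical axis) against minutes of flavopiridol (horizontal axis) for each SR gene, with each library as a point and the mean of log2 as a line, nucleus in blue and cytosol in orange. Srsf5 nuclear libraries end between 0.0438 and 0.0707 on the ratio scale, whereas those of Srsf3 and Srsf9 end at 0.644 or above.

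Srsf3, Srsf7 and Srsf1 encode the members best known as export adaptors. For Srsf7, a member with a zinc knuckle, nuclear ratios in replicates 1, 2 and 3 were 0.634, 0.723 and 0.596 at 30 min, 0.341, 0.394 and 0.365 at 120 min and 0.267, 0.245 and 0.254 at 240 min. Its cytosolic ratios were 0.779, 0.866 and 0.878 at 30 min, 0.953, 0.904 and 0.865 at 120 min and 0.558, 0.508 and 0.480 at 240 min. Nuclear and cytosolic libraries of Srsf7 did not overlap at any time. The cytosolic mRNA was thus near its starting level at 120 min while 0.367 ± 0.027 (SD, n = 3) of the nuclear mRNA was left.

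Srsf3, the smallest SR protein, behaved differently. Its nuclear ratios were 0.816, 0.762 and 0.583 at 30 min, 0.766, 0.854 and 0.728 at 120 min and 0.687, 0.644 and 0.729 at 240 min. Its cytosolic ratios were 0.695, 0.874 and 0.889 at 30 min, 0.902, 0.847 and 0.777 at 120 min and 0.592, 0.557 and 0.525 at 240 min. The 2 fractions overlapped at 30 and 120 min, and at 240 min all nuclear libraries lay above all cytosolic ones, the only member for which this was so. Srsf1, which also acts in translation, fell in both fractions. Its nuclear ratio was 0.841 ± 0.180 at 30 min, 0.438 ± 0.046 at 120 min and 0.284 ± 0.019 at 240 min (SD, n = 3), and its cytosolic ratio 0.765 ± 0.083, 0.624 ± 0.054 and 0.267 ± 0.041. At 240 min Srsf1 had the lowest cytosolic ratio of the 10, and its fractions then differed by 0.10 on the log2 scale (SE 0.16).

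Srsf2 encodes the classical SR protein that stays in the nucleus. Its nuclear ratios spread widely at 30 min, 0.983, 1.34 and 0.797, and were 0.620, 0.732 and 0.638 at 120 min and 0.617, 0.492 and 0.468 at 240 min. Its cytosolic ratios were 0.643, 0.845 and 0.795 at 30 min, 0.935, 0.847 and 0.851 at 120 min and 0.544, 0.482 and 0.463 at 240 min. Nucleus and cytosol overlapped at both ends of the course and were apart at 60 and 120 min.

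Srsf4, Srsf5 and Srsf6 encode a closely related group with a pair of RRMs each. Srsf4, whose protein has the longest RS domain of the group, was lowest in the nucleus early: its nuclear ratios were 0.465, 0.657 and 0.662 at 30 min, 0.259, 0.330 and 0.277 at 120 min and 0.162, 0.161 and 0.127 at 240 min. Its cytosolic ratios were 1.18, 1.06 and 1.07 at 30 min, 0.806, 0.683 and 0.644 at 120 min and 0.406, 0.374 and 0.339 at 240 min. No nuclear library of Srsf4 reached any cytosolic one at the same time.

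Srsf5 had the widest gap between nucleus and cytosol at 240 min. At each time in the cytosol, membrane and total fractions, but not in the nucleus, it had the largest SD of the ratio between replicates. On the log2 scale its nuclear SD was the largest of the members at 30, 120 and 240 min, with 1.16, 0.37 and 0.36. Its nuclear ratios were 0.211, 0.848 and 0.845 at 30 min, 0.307, 0.185 and 0.219 at 120 min and 0.0628, 0.0707 and 0.0438 at 240 min. Its cytosolic ratios were 2.07, 1.13 and 1.52 at 30 min, 1.49, 1.09 and 1.11 at 120 min and 0.874, 0.847 and 0.418 at 240 min. All 9 cytosolic libraries up to 120 min were above 1, and all 12 nuclear libraries were below 1. The low nuclear 30 min value of replicate 1 came from the library that stood apart. Srsf6 moved far less: its nuclear ratio was 0.886 ± 0.134 at 30 min, 0.553 ± 0.021 at 120 min and 0.364 ± 0.038 at 240 min, and its cytosolic ratio 0.907 ± 0.045, 0.878 ± 0.034 and 0.457 ± 0.043 (SD, n = 3).

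Srsf9 encodes a close relative of SRSF1 with a short RS domain and had the highest mean ratio of the members at 240 min in all 4 fractions, although the nuclear slope of Srsf3 was flatter. Its nuclear ratios at 240 min were 0.830, 0.861 and 0.737 and its cytosolic ratios 0.785, 0.790 and 0.703, which overlapped. Srsf10 encodes a factor that represses splicing when dephosphorylated, as after heat shock. Its nuclear ratio was 0.696 ± 0.107 at 30 min, 0.355 ± 0.028 at 120 min and 0.213 ± 0.015 at 240 min, and its cytosolic ratio 0.910 ± 0.138, 0.696 ± 0.058 and 0.351 ± 0.033 (SD, n = 3).

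Srsf11 encodes an RS-domain protein that associates with the splicing machinery. Its nuclear ratios were 0.796, 1.40 and 0.659 at 30 min, 0.422, 0.263 and 0.289 at 120 min and 0.197, 0.161 and 0.189 at 240 min. Its cytosolic ratios were 0.638, 0.814 and 0.614 at 30 min, 1.02, 1.07 and 0.849 at 120 min and 0.229, 0.409 and 0.277 at 240 min. All 3 cytosolic libraries at 120 min were thus above all 3 at 30 min, before the drop to 240 min.

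The difference between nucleus and cytosol was tested at each time with limma on log2 ratios over 11232 genes, with group means for the 8 combinations of fraction and time. At 30 min, 4 members were lower in the nucleus at an adjusted p under 0.05 (Srsf4, Srsf5, Srsf7 and Srsf10), against 23.1% of all genes, and none was higher, against 7.05%. At 60 min, 7 were lower (all but Srsf3, Srsf9 and Srsf11), against 34.7%, and none higher, against 7.03%. At 120 min, 7 were lower (all but Srsf2, Srsf3 and Srsf9), against 33.4%, and none higher, against 14.9%. At 240 min, 6 were lower (Srsf4, Srsf5, Srsf6, Srsf7, Srsf10 and Srsf11), against 34.8%, and none higher, against 21.6%. In the deposited scaling, the share of members lower in the nucleus was above the background at all 4 times. The median difference over the members was -0.12, -0.57, -0.82 and -0.52 against -0.24, -0.35, -0.24 and -0.19 over all genes. At 30 min the median member was thus less low in the nucleus than the median gene. That order rested on the nuclear 30 min library of replicate 1. With it left out, the medians at 30 min were -0.13 over the members and -0.075 over all genes.

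The largest difference was that of Srsf5 at 240 min, -3.55 on the log2 scale (SE 0.42, limma adjusted p = 1.4e-06), and 0.69% of genes had a lower value. Srsf7 differed by -1.31 at 120 min (SE 0.10, adjusted p = 2.0e-08) and Srsf4 by -1.32 at 240 min (SE 0.15, adjusted p = 9.3e-07). Srsf11 differed by -1.62 at 120 min (SE 0.26, adjusted p = 6.3e-05) but by -0.71 at 240 min (SE 0.26, adjusted p = 0.029). Srsf3 and Srsf9 passed at no time, with differences from -0.32 to 0.30 and from -0.13 to 0.16. After subtracting each library's median over genes, the split of lower and higher calls became 2 and 5 at 30 min, 4 and 0 at 60 min, 6 and 0 at 120 min and 4 and 4 at 240 min, with Srsf4, Srsf5, Srsf7 and Srsf10 lower at 60, 120 and 240 min in either scaling. The shares of all genes lower and higher were then 14.5% and 19.5% at 30 min, 17.6% and 24.6% at 60 min, 22.5% and 33% at 120 min and 24.9% and 36.9% at 240 min. Without the nuclear 30 min library of replicate 1, Srsf5 and Srsf10 did not pass at 30 min (-0.85, limma adjusted p = 0.072, and -0.38, adjusted p = 0.083). That left 2 members lower, against 13.2% of genes. At 60 min 8 members were lower without that library, against 39.1% of genes. Leaving out 1 replicate number left 1 or 2 calls at 30 min, against 7.42% to 16.3% of genes called lower.

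**Figure D2:**
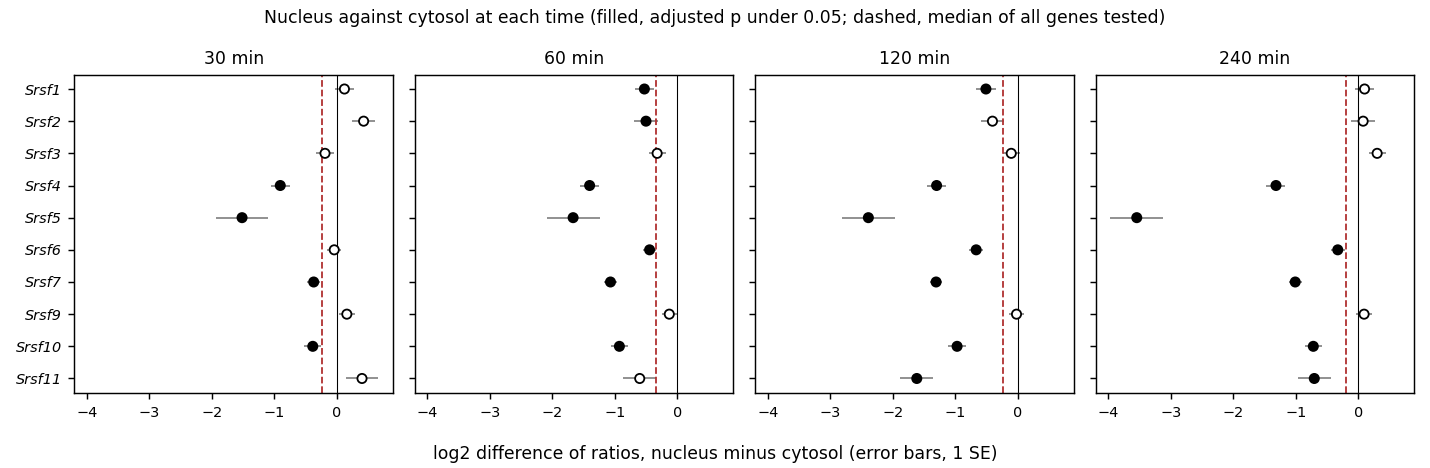
Log2 difference of the ratios, nucleus minus cytosol (horizontal axis), for each SR gene at 4 times; bars are 1 SE, filled points have an adjusted p under 0.05 and the dashed line is the median of all genes tested. Filled points number 4, 7, 7 and 6, all at or left of -0.33, and Srsf5 reaches -3.55 at 240 min.

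Counting libraries without a model, all 3 nuclear libraries lay below all 3 cytosolic ones for 3 members at 30 min (30.2% of genes), 9 at 60 min (44.9%), 8 at 120 min (40.7%) and 6 at 240 min (39%). The exception at 60 min was Srsf9, and at 120 min Srsf3 and Srsf9. The reverse order was found for no member at 30, 60 and 120 min, against 9.13%, 10.9% and 20.7% of genes, and for Srsf3 at 240 min, against 25.1%.

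The course was then split at 120 min. In the cytosol, 2 members fell between 30 and 120 min (Srsf4 by 0.64 and Srsf10 by 0.38 on the log2 scale), whereas 48.8% of all genes did. Between 120 and 240 min, 9 members fell (all but Srsf9), against 47.9% of genes. None rose in either interval, against 1.44% and 2.78% of genes. The median change of the members was -0.06 in the first interval and -0.89 in the second, against -0.48 and -0.50 for all genes. After centring each library on its median gene, 6 members rose in the cytosol between 30 and 120 min (Srsf2, Srsf3, Srsf6, Srsf7, Srsf9 and Srsf11) and none fell. The same held after scaling libraries to equal totals, whereas none rose under the authors' scaling. Of all genes, 16.8% rose and 19.3% fell after centring, and 16.1% and 19.4% with equal totals. Srsf11 changed by 0.51 and then by -1.72 (SE 0.22 for both, limma adjusted p = 0.079 and 1.1e-04), and Srsf7 by 0.11 and then -0.82 (SE 0.08 for both, adjusted p = 0.29 and 2.1e-05). The median member thus changed little in the cytosol before 120 min, while the median gene fell in both intervals.

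In the nucleus, 6 members fell between 30 and 120 min (Srsf1, Srsf4, Srsf6, Srsf7, Srsf10 and Srsf11), against 42.1% of genes, and 6 between 120 and 240 min (Srsf1, Srsf4, Srsf5, Srsf6, Srsf7 and Srsf10), against 34.3%. None rose, against 2.08% and 1.97%. The median change of the members was -0.87 and then -0.62, against -0.61 and -0.50 for all genes. Without the nuclear 30 min library of replicate 1, 7 members fell in each of these intervals, against 55.3% and 42.1% of genes. The median change in the first interval was then -0.89 for the members and -0.81 for all genes, so most of the gap between them rested on that library. Leaving out 1 replicate number at a time gave 0 to 7 members in the first nuclear interval (0 without replicate 2) and 0 to 4 in the second (0 without replicate 2 or 3), against 1 to 3 and 8 in the cytosol. Without replicate 2 the median change of the members in the first nuclear interval was -0.73, and the share of all genes called lower dropped from 42.1% to 15.3%. Srsf5 had the steepest second interval, -2.00 (SE 0.49, limma adjusted p = 0.0091), and Srsf3 changed by 0.13 (SE 0.17) and -0.19 (SE 0.17).

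**Figure D3:**
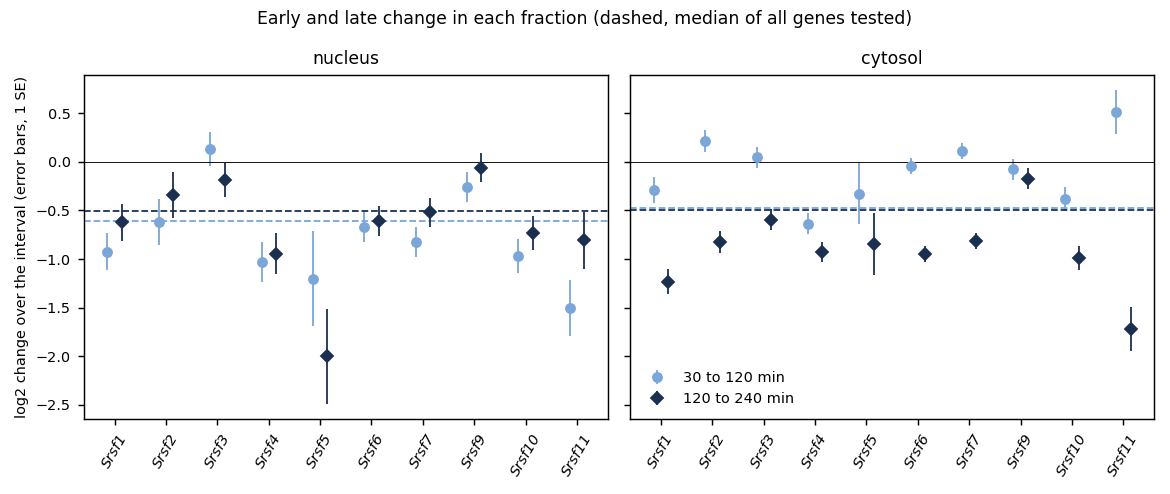
Log2 change of each SR gene (vertical axis) between 30 and 120 min (light circles) and between 120 and 240 min (dark diamonds) in the nucleus and the cytosol; bars are 1 SE and dashed lines are the median of all genes tested. In the cytosol the light circles lie on both sides of 0, from -0.64 (Srsf4) to 0.51 (Srsf11), and all but that of Srsf4 lie above the all-gene line of -0.48. The dark diamonds of 9 members lie below 0 at a limma adjusted p under 0.05.

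The comparison of these changes between fractions, and that of rates within a fraction, were chosen after the courses had been seen. The change from 30 to 120 min was lower in the nucleus than in the cytosol for 3 members, against 6.62% of genes: Srsf11 by -2.02 (SE 0.37, limma adjusted p = 0.0020), Srsf7 by -0.94 (SE 0.14, adjusted p = 5.2e-04) and Srsf6 by -0.62 (SE 0.16, adjusted p = 0.015). It was higher for none, against 3.7% of genes. In 9 of 10 members the estimate was below 0, Srsf3 being the exception at 0.08 (SE 0.19), and the median was -0.63 against 0.00 over all genes. Without the nuclear 30 min library of replicate 1, 5 members passed, Srsf2 and Srsf5 in addition, against 14.3% of genes, while leaving out replicate 2 or 3 left 1, against 0.703% and 0.552%. The medians without that nuclear library were -0.68 over the members and -0.13 over all genes. From 120 to 240 min no member differed between the fractions by limma, against 0.223% of genes lower and 0.463% higher. At an unadjusted p under 0.05, 4 members were higher in the nucleus in that interval, Srsf1, Srsf3, Srsf6 and Srsf11, against 9.65% of all genes, and none was lower, against 5.44%.

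The rate after 120 min was compared with the rate before within each fraction. In the cytosol it was more negative for Srsf2, Srsf6, Srsf7 and Srsf11, that is 4 members against 1.75% of genes, with differences from -1.20 to -0.44 log2 units per hour, and less negative for none, against 4.83%. With any 1 replicate number left out, none of the 4 passed, and at most 2 of all 11979 genes were called more negative. In the nucleus no member passed by limma, against 1.31% of genes lower and 5.09% higher, and none had an unadjusted p under 0.05, against 5.49% of genes lower and 17.3% higher. Centring the libraries raised the cytosolic count from 4 to 6, with Srsf1 and Srsf3 in addition, and the share of all genes from 1.75% to 5.52%, and left the nuclear count at 0.

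A single slope over 30 to 240 min takes both intervals together. In the nucleus 8 members fell (all but Srsf3 and Srsf9), against 61.9% of genes, and in the cytosol all 10, against 67.1%. In the membrane fraction 9 fell (all but Srsf9), against 62.2%, and in the total extract 7 (all but Srsf2, Srsf5 and Srsf9), against 56.9%. None rose in any fraction, against 3.32%, 2.95%, 4.09% and 3.39% of genes in nucleus, cytosol, membrane and total. Member medians were -0.37, -0.32, -0.26 and -0.23 log2 units per hour in nucleus, cytosol, membrane and total, close to the all-gene medians of -0.30, -0.28, -0.26 and -0.22. Relative to the median gene of each library, 4 members fell and 2 rose in the nucleus, and 3 fell and 2 rose in each other fraction, with Srsf9 rising in all 4. These shares were near those of all genes, of which between 29.2% and 32.4% fell and between 28.3% and 29.6% rose in the 4 fractions after the same centring. Without the low total library of replicate 1 at 120 min, 9 members fell in the total extract, against 58.3% of genes.

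The slope differed between nucleus and cytosol for 2 members. Srsf5 fell faster in the nucleus, -0.93 against -0.33 log2 units per hour, a difference of -0.60 (SE 0.15, limma adjusted p = 0.0062), where 8.3% of genes were called lower. Srsf3 fell more slowly, -0.01 against -0.17, a difference of 0.16 (SE 0.06, adjusted p = 0.043), where 12.3% were called higher. With 2 calls among 10 members, the slope difference was no more frequent than among all genes. The call of Srsf3 was lost under both other scalings (adjusted p = 0.059 and 0.20), and both calls were lost without replicate 2 or without replicate 3 and with either pseudocount.

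**Figure D4:**
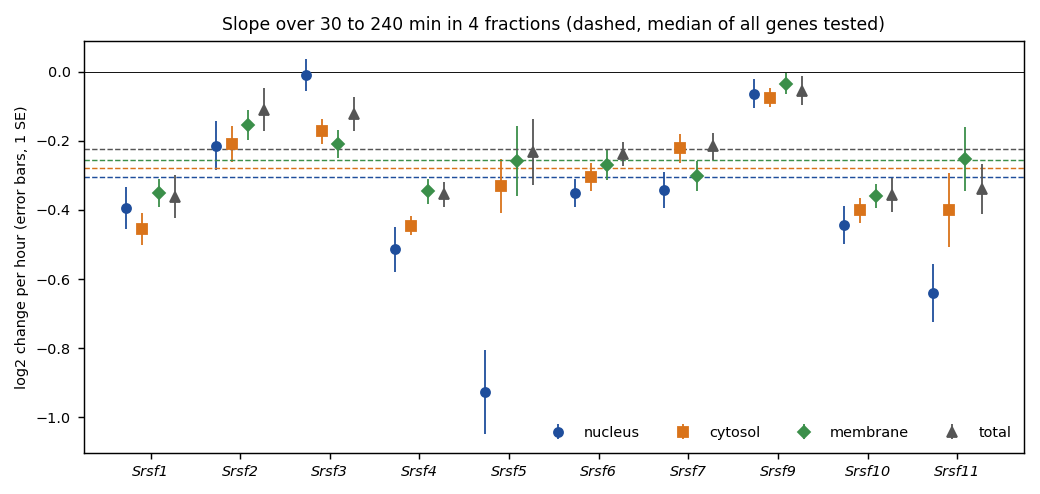
Slope of the log2 ratio in log2 units per hour (vertical axis) for each SR gene in nucleus, cytosol, membrane and total extract; bars are 1 SE and dashed lines are the all-gene medians. Srsf5 in the nucleus is lowest at -0.93, and Srsf9 lies between -0.08 and -0.04 in all 4 fractions.

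The membrane fraction holds mRNA released by NP-40 after the cytosol has been removed. No member differed in slope between membrane and cytosol by limma, against 1.76% of genes lower and 4.94% higher, while Srsf4 had an unadjusted p under 0.05 (0.10, SE 0.04), as did 13.8% of all genes in that direction. Levels nevertheless separated in the middle of the course. All 3 membrane libraries lay below all 3 cytosolic ones for 7 members at 60 min (34.7% of genes) and for 5 at 120 min (31.3%), namely Srsf2, Srsf3, Srsf4, Srsf6 and Srsf7. At 120 min Srsf7 stood at 0.500, 0.442 and 0.488 in the membrane libraries against 0.953, 0.904 and 0.865 in the cytosol. At 30 and 240 min 1 member each did so, Srsf4 (20.4% of genes) and Srsf7 (18.6%), and the reverse order was seen for no member at any time, against 13.8%, 13%, 17.8% and 21.7% of genes at 30, 60, 120 and 240 min. This count was chosen after the values had been seen and was not tested. Srsf5 was above 1 in the membrane fraction on average up to 120 min, 1.39 ± 0.55 (SD, n = 3), as in the cytosol.

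Half-lives fitted with a single exponential summarised each course. The median over the 10 members was 134 min ± 25.7 for nuclear and 242 min ± 27.0 for cytosolic mRNA, 234 min ± 69.1 for the membrane fraction and 241 min ± 23.1 for the total extract (SD over fits to the 3 replicate series). The medians over all genes were 176 min ± 92.4, 213 min ± 22.8, 219 min ± 22.6 and 244 min ± 13.5. In the nucleus the shortest were those of Srsf5, 61.3 min ± 75.4, and Srsf11, 64.7 min ± 40.1, and 7 members were below the all-gene median. The replicate fits of nuclear Srsf5 gave 165, 35.1 and 33.7 min for replicates 1, 2 and 3, and replicate 1 holds the 30 min library that stood apart. Without that library the nuclear member median was 139 min. In the cytosol Srsf4 was shortest with 137 min ± 10.9, and 4 members were below the all-gene median. Srsf3 in the nucleus and Srsf9 in all fractions had half-lives beyond the 240 min observed, with replicate fits that differed several-fold, and no value is given. Outside the nucleus other members also had fits beyond 240 min, among them cytosolic Srsf2, Srsf3 and Srsf7 with 351, 390 and 327 min. The cytosolic and total member medians of 242 and 241 min themselves lie past the last harvest. These values depended on the times fitted and on the scaling. Over 30 to 120 min alone, the member median was 1182 min for cytosolic and 94.8 min for nuclear mRNA, and after centring on the median gene it was 2331 and 1123 min.

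Other genes of the pathway were taken from 3 lists. Of 7 kinase and import genes, 6 were tested (Clk2 was not analysed here), and all 6 fell in nucleus and cytosol alike, against 61.9% and 67.1% of all genes. Clk1, a kinase that releases SR proteins from speckles, had the lowest nuclear slope, -1.42 log2 units per hour (SE 0.10), and -1.25 (SE 0.06) in the cytosol. None of the 6 differed in slope between the fractions, with estimates from -0.23 (Tnpo3, the import receptor of SR proteins) to 0.05 (Srpk2, a cytoplasmic SR protein kinase), and none had an unadjusted p under 0.05. Of all genes, 8.3% were called lower and 12.3% higher, and 14.1% and 20.4% had an unadjusted p under 0.05 in these directions.

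Of 12 SR-related genes, 8 were tested for the slope difference. Of these, 3 fell more slowly in the nucleus than in the cytosol, against 12.3% of all genes, while none fell faster, against 8.3%. The highest difference was that of Son, a scaffold of nuclear speckles, with -0.33 in the nucleus against -0.66 in the cytosol, a difference of 0.33 (SE 0.05, limma adjusted p = 1.6e-04). The others, named after their values were seen, were Pnn with 0.29 (SE 0.06) and Tra2b, a splicing activator related to the SR proteins, with 0.21 (SE 0.05). Srsf12 had the lowest difference, -0.20 (SE 0.22), and the lowest nuclear slope, -0.74 (SE 0.16). Tra2a and Bclaf1 were not analysed here. Srrm1 and Rnps1 were also not among the 8 tested, and Rnps1 was fitted only in the cytosol and the total extract. Of 7 spliceosome partners, 5 were tested, and Snrpc of the U1 particle fell more slowly in the nucleus (0.23, SE 0.05, adjusted p = 0.0025), while Snrpa had the lowest difference, -0.14 (SE 0.18). Snrnp70, also of U1, had the lowest nuclear slope of that list, -0.48 (SE 0.07). None of these 3 lists had a member called lower for the slope difference, against 8.3% of all genes. The change from 30 to 120 min was called lower in the nucleus for 2 of 6 kinase and import genes and for none of the 8 and 5 others, against 6.62% of all genes. The 2, named after their values were seen, were Clk4 with a difference of -1.96 (SE 0.57, limma adjusted p = 0.033) and Clk1 with -1.31 (SE 0.31, adjusted p = 0.011).

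The mean course of the 10 members over the 8 groups of nucleus and cytosol was set beside the other genes listed in all 48 libraries with a symbol, leaving out symbols that are clone or predicted-gene names. The closest of these 8535 genes, ranked by root mean square distance of log2 ratios, were Dffa (0.09), Ddx47 (0.11), Rps6kb1 (0.11), Arpc5l (0.11) and Chmp7 (0.11). Among the members themselves, Srsf7 lay closest to the mean course (0.20), followed by Srsf6 (0.23) and Srsf10 (0.27), and Srsf5 was farthest (0.99), then Srsf9 (0.74).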

How the data were processed

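According to the labels and methods, reads were aligned by the authors to mm10 (STAR 2.7.6) and counted (RSEM 1.3.3). They scaled libraries on genes with half-lives above 14 h and divided by the 0 min level. What was deposited is thus a ratio to 0 min, with genes at 0 unlisted and depth unknown, and the scaling sets the direction of slow changes. Titles give 240 min as the last time, which was used, and the protocol text 180 min. Of 23862 identifiers, 23786 matched a symbol.

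Log2 ratios, with no pseudocount, of genes listed in all libraries of a fit were tested two-sided with limma 3.58.1 (R 4.3.3, eBayes with a mean-variance trend), with p-values adjusted by Benjamini-Hochberg over all genes and called under 0.05, after tests on simulated data. For half-lives, A·exp(-kt) was fitted by least squares in Python 3.11.15. Gene models are those of GENCODE on GRCm38. Members and gene lists were chosen with earlier results of these data known. All 10 members, and at most 3 genes per list (lowest and highest slope difference, lowest nuclear slope), were named by rule. Alternatives comprised other scalings, pseudocounts, listing filters, blocks, times and left-out libraries. Nuclear and cytosolic libraries of the same time and number had correlated deviations over 0.1 in 0 of 12 pairs, and numbers were not treated as pairs in the main fits. A correlation over genes does not register a shift of a whole library, so it cannot show that these libraries are unpaired.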

Additional observations from a re-analysis of the deposited data

Results flagged for a closer look

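Genes whose change differed between nucleus and cytosol by a test of the difference itself were as follows. Srsf5 had a slope lower in the nucleus by -0.60 log2 units per hour, and Srsf3 a slope higher by 0.16. Over 30 to 120 min, the log2 change in the nucleus minus that in the cytosol was -0.62 for Srsf6, -0.94 for Srsf7 and -2.02 for Srsf11, and this comparison of the change between fractions was chosen after the courses had been seen.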

How the results depend on the processing

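Of 1225 alternative values of single members with a call in either fit, 943 kept direction and side of the threshold, 178 lost the call, 63 gained it and 41 turned direction, all 41 under centring on the median gene, scaling to equal totals, or 30 to 120 min alone. A further 73 turned sign with no call in either fit. With the cause not tested unless fewer libraries entered, the counts that moved by over 1.5 times were these.

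Centring on the median gene gave slope calls for 5 members in cytosol and 5 in membrane, each with 3 falling and 2 rising. It gave 1 lower for the slope difference nucleus minus cytosol (10.1% of genes). Differences between the fractions were called for 7 at 30 min (2 lower and 5 higher) and 4 at 60 min (all lower). Nuclear changes were called for 3 from 30 to 120 min (2 falls and 1 rise, against 20.2% and 19.3% of genes) and 2 from 120 to 240 min (both falls, 18.2%). Cytosolic changes from 30 to 120 min were called for 6, all rises (16.8%), where the main fit had 2 falls. Equal totals gave 4 slopes in cytosol (3 falling and 1 rising, against 38.9% and 21.5% of genes) and 5 in membrane (4 and 1, against 39.5% and 18.3%). They gave 1 lower for the slope difference (14.3%), 4 lower at 60 min (23.2%) and 2 falls for the late nuclear change (25.2%). The early cytosolic change had 6 rises (16.1%). The early change nucleus minus cytosol was lower for 7 (12.9%), and the change of cytosolic rate was negative for 7 (11.9%). The fits to 30 to 120 min alone gave 3 falling slopes in cytosol (50.3% of genes) and 2 in total (50.8%). They gave 1 lower for the slope membrane minus cytosol (4.51%), where the main fit had 0. Their 3 lower for the slope difference (4.84%) were not a move by over 1.5 times. A pseudocount of 0.1 gave 0 for the slope difference (4.49% of genes lower and 9.3% higher). A pseudocount of 1 gave 0 for it (1.87% and 7.08%) and 0 for the late nuclear change (11.9% falling and 1.47% rising). It gave 4 for the early cytosolic change (3 falls and 1 rise, against 51.5% and 1.51%). A last time of 180 min gave 1 lower for the slope difference (9.25% of genes). A random harvest block gave 5 lower for the early change nucleus minus cytosol (8.16%). Without the nuclear 30 min library of replicate 1, the counts were 2 lower at 30 min (13.2%) and 5 lower for that early change (14.3%).

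According to the methods, cells were fractionated after harvest. Same-numbered libraries of the same time may therefore come from the same cells, which the titles do not state. A replicate block gave 1 member for the slope difference (Srsf5) against 2 without it, and moved no other count by over 1.5 times. Leaving out 1 replicate number gave 7 to 8 (nucleus), 8 to 10 (cytosol), 6 to 8 (membrane) and 6 to 8 (total) slope calls, 0 to 2 for the slope difference, 1 to 2, 4 to 5, 6 to 7 and 4 to 5 for the 4 times, 0 to 7 and 0 to 4 for the nuclear intervals, 1 to 3 and 8 for the cytosolic ones, 1 to 3 for the early change nucleus minus cytosol and 0 for the change of cytosolic rate.

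Member median half-lives were 162 and 189 min (nucleus, cytosol) with a straight line on log2, 95.9, 292 and 158 min (nucleus, cytosol, membrane) with the level at 0 min fixed at 1, 94.8 and 1182 min (nucleus, cytosol) over 30 to 120 min, and 1123, 2331 and 6037 min (nucleus, cytosol, total) after centring, which gave no finite value in the membrane fraction. Leaving out 1 replicate number gave 123 to 154 min in the nucleus, 230 to 253 min in the cytosol, 173 to 253 min in the membrane fraction and 217 to 266 min in the total extract.

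Values that turned direction after centring were, as slopes, 0.10, 0.31 and 0.25 for Srsf2, Srsf3 and Srsf9 in the nucleus, 0.072, 0.11, 0.060 and 0.21 for Srsf2, Srsf3, Srsf7 and Srsf9 in the cytosol, 0.11, 0.051, 0.0014, 0.23 and 0.0083 for Srsf2, Srsf3, Srsf5, Srsf9 and Srsf11 in the membrane fraction, and 0.12, 0.11, 0.012 and 0.17 for Srsf2, Srsf3, Srsf7 and Srsf9 in the total extract. Srsf6 turned in the differences at 30 min (0.22) and 240 min (0.040), Srsf7 in the late nuclear change (0.0037), Srsf6, Srsf9 and Srsf10 in the early cytosolic change (0.43, 0.39 and 0.094) and Srsf9 in the late one (0.33). With equal totals, slopes turned to 0.19 and 0.14 for Srsf3 and Srsf9 in the nucleus, 0.011, 0.047 and 0.14 for Srsf2, Srsf3 and Srsf9 in the cytosol, 0.028 and 0.15 for Srsf2 and Srsf9 in the membrane fraction and 0.038 and 0.10 for Srsf3 and Srsf9 in the total extract, and the early cytosolic change to 0.42, 0.39 and 0.086 for Srsf6, Srsf9 and Srsf10. Over 30 to 120 min alone, slopes turned to 0.12, 0.020, 0.063 and 0.31 for Srsf2, Srsf3, Srsf7 and Srsf11 in the cytosol, 0.0047 for Srsf5 in the membrane fraction and 0.0022 for Srsf3 in the total extract.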
